A study of Mus musculus with 55 samples.

Results

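The regions described here were called for the histone mark H3K27ac in the tailbud of the mouse embryo at embryonic day 9.5 (E9.5) and not in anterior tissue of the same stage. They were chosen by their own acetylation calls: a region of the second tailbud list was taken where it overlapped a region of the first tailbud list by at least 1 bp and overlapped no region of either anterior list. The rule took 5312 of 76071 regions, or 6.98%. The 2 tissues are wild type and untreated, were crosslinked for 10 min, and have 2 libraries each, and the number of embryos behind a library is not given in the sources used here. The readouts set against these regions came from epiblast stem cells (EpiSCs), lines grown out of E6.0 pre-streak embryos in medium that holds IWP2 (2 µM), which blocks Wnt secretion, beside Activin A and Fgf-basic. Wild-type EpiSCs were profiled by ChIP-seq after 24h with the Wnt-activating GSK3 inhibitor CHIR99021 (3 µM) and Fgf8 (120 ng/ml), without IWP2, using antibodies to Cdx2 (2 libraries), T (2), CBP-P300 (1) and H3K27ac (2). Open chromatin was mapped by ATAC-seq in EpiSCs labelled CdxKO, kept in IWP2 (0h) or treated for 48h with CHIR99021 alone, with 1 library each. The labels do not spell out the CdxKO alleles, and their culture text also speaks of genotyping for Wnt3. RNA counts came from EpiSC lines labelled WT and Null, a genotype the labels do not spell out, kept in IWP2 (0h) or given CHIR99021 and Fgf8 for 24h, with 2 libraries in each of the 4 groups. The series holds 55 samples in all.

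H3K27ac is deposited by the related acetyltransferases CBP and P300 and marks active enhancers and promoters. Cdx2 is a homeodomain factor and T (Brachyury) a T-box factor. Both are expressed in the axial progenitors of the primitive streak and tailbud, which build the trunk and tail, and both are needed for posterior growth. ATAC-seq finds chromatin that a transposase can reach, which active regulatory elements usually are.

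The first library of each E9.5 tissue carries a warning in the labels: its batch of antibody also recognises H3K9ac, another active mark, and the submitters set both libraries aside in their own work. The rule uses both lists, so the results below are also given from the replicate 2 lists alone. The 4 lists differ in length, with 39284 and 76071 regions for the tailbud and 28599 and 61674 for the anterior, and a longer tailbud list leaves more room for regions without an anterior partner. A region without a call may still hold the mark at a level under the caller's threshold, since the lists give positions and no heights. A change in the share of cells with the mark and a change in the mark per cell cannot be told apart in such tissue. No E9.5 RNA from these pieces was used, so the labelled tissue could not be checked against marker genes. Of the members, 0 overlapped a region of an E9.5 input list, the control made from DNA before immunoprecipitation. The lengths of the input lists and the share of all tailbud regions on them are not given here. The count of 0 is therefore no check on the members.

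Of the 76071 regions, 33165 (43.6%) also appeared in the first tailbud list. Of those, 60.6% overlapped the first anterior list, 83.9% the second, and 16.0% neither, which are the members. The mirrored rule, starting from the second anterior list, took 1305 regions (2.12%), called anterior-specific below. Another 20045 tailbud regions lay in all 4 lists and are called shared. The edges of the rule were narrow: the members closest to an anterior region were 4, 9 and 13 bp away from it, while left-out regions overlapped one by as little as 9, 12 and 21 bp. The median gap of a member to an anterior region was 7918 bp, with 9.94% within 1 kb and 92.1% within 50 kb. The smallest overlap of a member with the first tailbud list was 2 bp, and the median member was covered over 49.3% of its length.

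Cdx2 was found on a small share of the tailbud-specific regions, and that share was higher than among tailbud regions at large. A Cdx2 site was a call of one replicate that overlapped a call of the other, with joined calls merged, which gave 1075 sites, and 767 T sites were made in the same way. A Cdx2 site lay in 148 members, or 2.79% (95% Wilson interval 2.38 to 3.26), beside 0.894% of all tailbud replicate 2 regions, a background that includes the members. The share was 1.01% in shared regions, so that members stood 1.77 percentage points higher (Newcombe interval 1.34 to 2.27). Only 1 of 1305 anterior-specific regions held a Cdx2 site, a share of 0.0766%, which members exceeded by 2.71 points (2.17 to 3.19). Each Cdx2 library alone also put members above the background: 158 members (2.97%) against a background of 0.97% for replicate 1, and 259 (4.88%) against 1.66% for replicate 2. All such intervals cover the counting of regions only. Regions are not replicates of a tissue, and no p-value was computed from them.

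T was rarer, and its share was again highest in the tailbud-specific regions. A T site lay in 33 members, or 0.621% (0.443 to 0.871), beside 0.317% of all tailbud regions. Shared regions held 0.244%, and the difference was 0.377 points (0.182 to 0.634). None of the 1305 anterior-specific regions had a T site, a count that allows a share of up to 0.23%. By library, T replicate 1 lay in 58 members (1.09%, background 0.518%) and T replicate 2 in 40 (0.753%, background 0.401%).

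**Figure D1:**
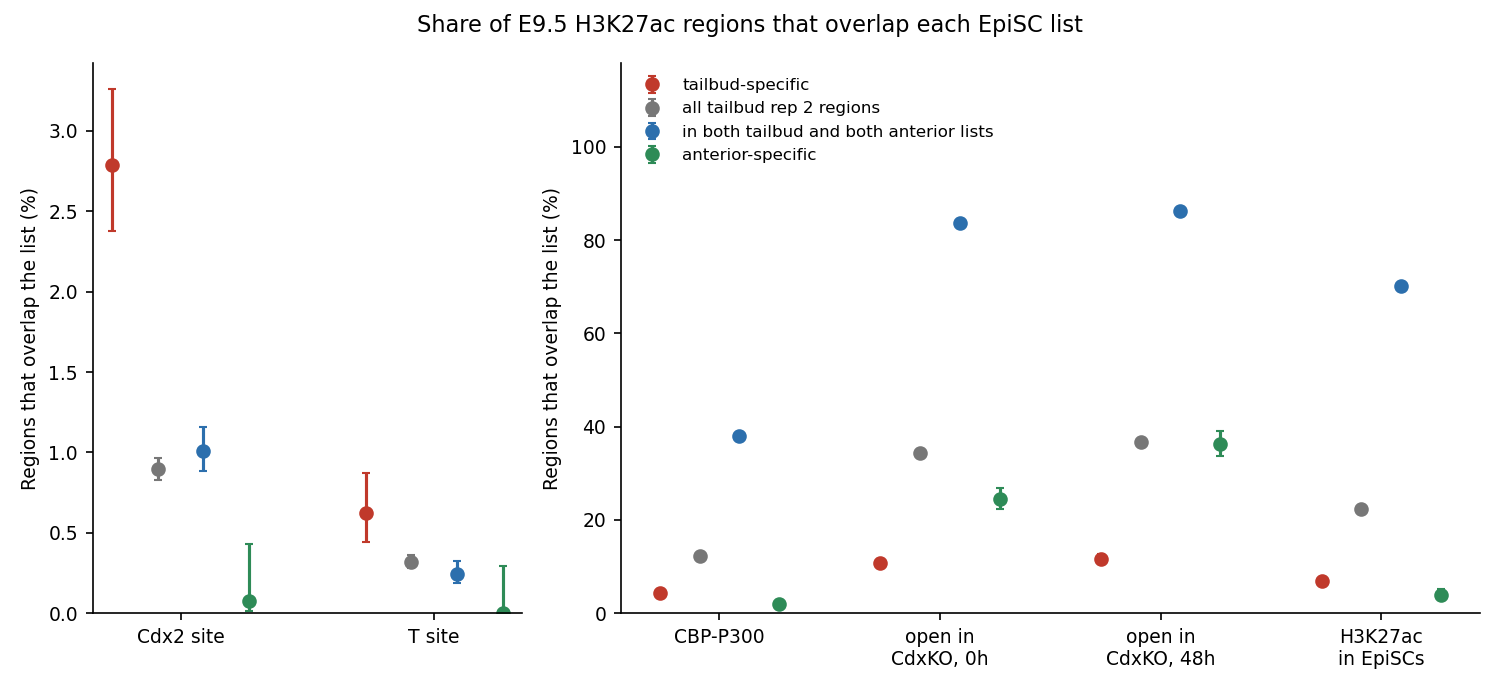
Share of regions (vertical axes, percent) that overlap each EpiSC list, for tailbud-specific (n = 5312), all tailbud replicate 2 (n = 76071), shared (n = 20045) and anterior-specific (n = 1305) regions; bars are 95% Wilson intervals and are hidden by the point where short. Tailbud-specific regions are highest for Cdx2 (2.79%) and T (0.621%), and lowest for openness (10.7% and 11.7%).

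Width bears on any overlap, since a wider region can meet a site more easily. Members had a median width of 1066 bp, against 762 bp for all tailbud regions, 1702 bp for shared and 1242 bp for anterior-specific ones. The comparison was therefore repeated in 4 width classes, cut at the members' quartiles. The Cdx2 share of members was 0.602%, 1.06%, 2.79% and 6.7% from the narrowest class (up to 715 bp) to the widest (over 1625 bp). Shared regions of the same widths held 0.185%, 0.301%, 0.417% and 1.57%, and all tailbud regions 0.318%, 0.64%, 0.942% and 2.43%. In the upper 2 classes the members' intervals (2.03 to 3.82 and 5.48 to 8.18) lay clear of those of shared regions (0.278 to 0.626 and 1.36 to 1.83). In the narrowest class they overlapped, with 8 members and 2 shared regions holding a site. T sites were too few for such a split in the narrower classes. The members' T share was 0.226%, 0.377%, 0.452% and 1.43% from narrow to wide, against 0.37%, 0.0754%, 0.0363% and 0.38% of shared regions. In the narrowest class, with 3 members and 4 shared regions, the order was thus the other way. In the widest class the intervals lay apart (0.918 to 2.22 against 0.28 to 0.514). Tailbud regions found in the second tailbud list alone had T shares of 0.683% and 0.894% in the middle classes, higher than the members' values there.

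**Figure D2:**
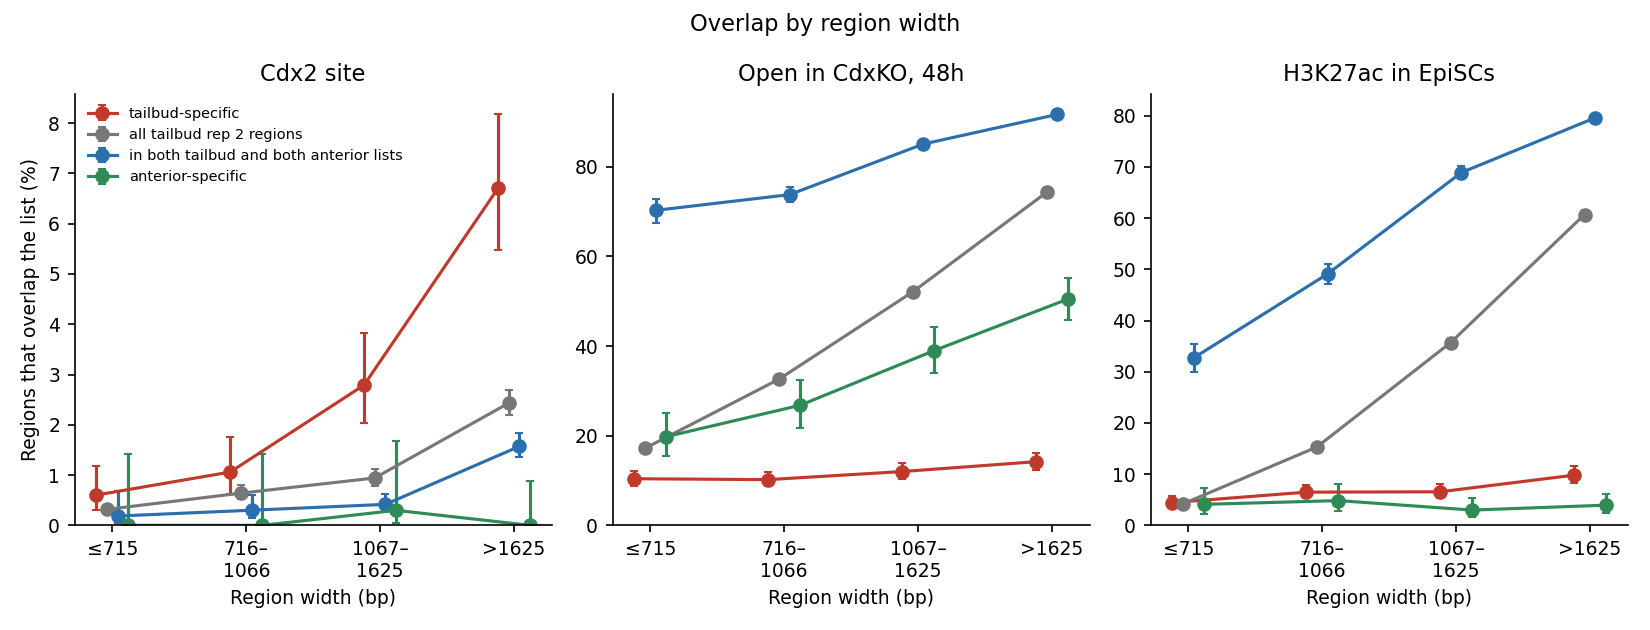
Share of regions (vertical axes, percent) with a Cdx2 site, open at 48h, or with H3K27ac in both EpiSC libraries, by region width in bp (horizontal axes); colours are the 4 groups of regions and bars 95% Wilson intervals. The Cdx2 share of tailbud-specific regions reaches 6.7% in the widest class, while their openness stays between 10.2% and 14.2%.

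Without the 2 cross-reacting libraries, the picture at all widths changed. The second tailbud list held 33408 regions with no overlap in the second anterior list. Their Cdx2 share was 0.916%, close to the 0.894% of all tailbud regions, and their T share was 0.407% beside 0.317%. These regions were narrow, with a median of 517 bp, and 69.9% fell in the narrowest width class. Within width classes, a split chosen after these values were seen, their Cdx2 share was 0.386%, 0.962%, 1.96% and 6.05% from narrow to wide. Regions in both replicate 2 lists held 0.191%, 0.412%, 0.609% and 1.96% in the same classes. Anterior replicate 2 regions without a tailbud replicate 2 overlap held a Cdx2 site in 21 of 18691 cases (0.112%) and a T site in 9 (0.0482%). The overall Cdx2 share was thus higher with the first tailbud list in the rule, which also left wider regions. In both versions of the rule the tailbud-only regions had a higher Cdx2 share than regions also called in anterior tissue in each of the 4 width classes. Leaving out the first tailbud list alone gave the same 0.915%, and leaving out the second anterior list alone gave 2.06%.

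The position of the site within a member varied. Over 151 pairs of a Cdx2 site and a member, the site's centre was a median of 310 bp from the member's centre, and 63.6% fell in the central 50% of the member. For 33 T pairs the median was 220 bp, again with 63.6% in the central 50%. The centre of the site lay outside the member in 32 Cdx2 pairs and 4 T pairs. Of the members with Cdx2, 145 held 1 site and 3 held 2. Of the members that did not overlap a Cdx2 site, 10.8% (10.0 to 11.7) had one within 50 kb, against 9.0% of all tailbud, 6.43% of shared and 6.83% of anterior-specific regions without an overlap. For T the shares were 4.38%, 4.42%, 3.47% and 3.83%, so that members stood at the level of all tailbud regions. With direct overlaps counted as well, a Cdx2 site lay within 50 kb of 13.3% of members, 9.81% of all tailbud regions and 11.2% of tailbud-only regions of the replicate 2 lists.

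A Cdx2 and a T site occurred together in 5 members, 0.0941% (0.0402 to 0.22), beside 21 of all 76071 tailbud regions (0.0276%). By the replicate 2 lists alone it was 13 of 33408 (0.0389%). The coordinates here and below are mm9. In each of the 5 the sites overlapped, with centres 0 to 95 bp apart. They differed in what else was present in EpiSCs. The region at chr15:36635238-36637326 (2089 bp) overlapped all 5 other EpiSC lists, namely CBP-P300, both H3K27ac libraries and both ATAC-seq times. At chr10:29574240-29576918 (2679 bp) there was H3K27ac in both libraries and openness at 48h, with no call at 0h and none for CBP-P300. The region at chr16:11469492-11472269 (2778 bp) had H3K27ac in replicate 2 alone and was open at 48h. At chr2:159021319-159023386 (2068 bp) openness at 48h was the single other signal. The narrowest, chr11:98990705-98991310 (606 bp), had no other EpiSC call, and its nearest anterior region was 1343 bp away. In 4 of the 5, then, the chromatin was open at 48h in CdxKO cells, and in 1 it was open at 0h too.

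**Figure D3:**
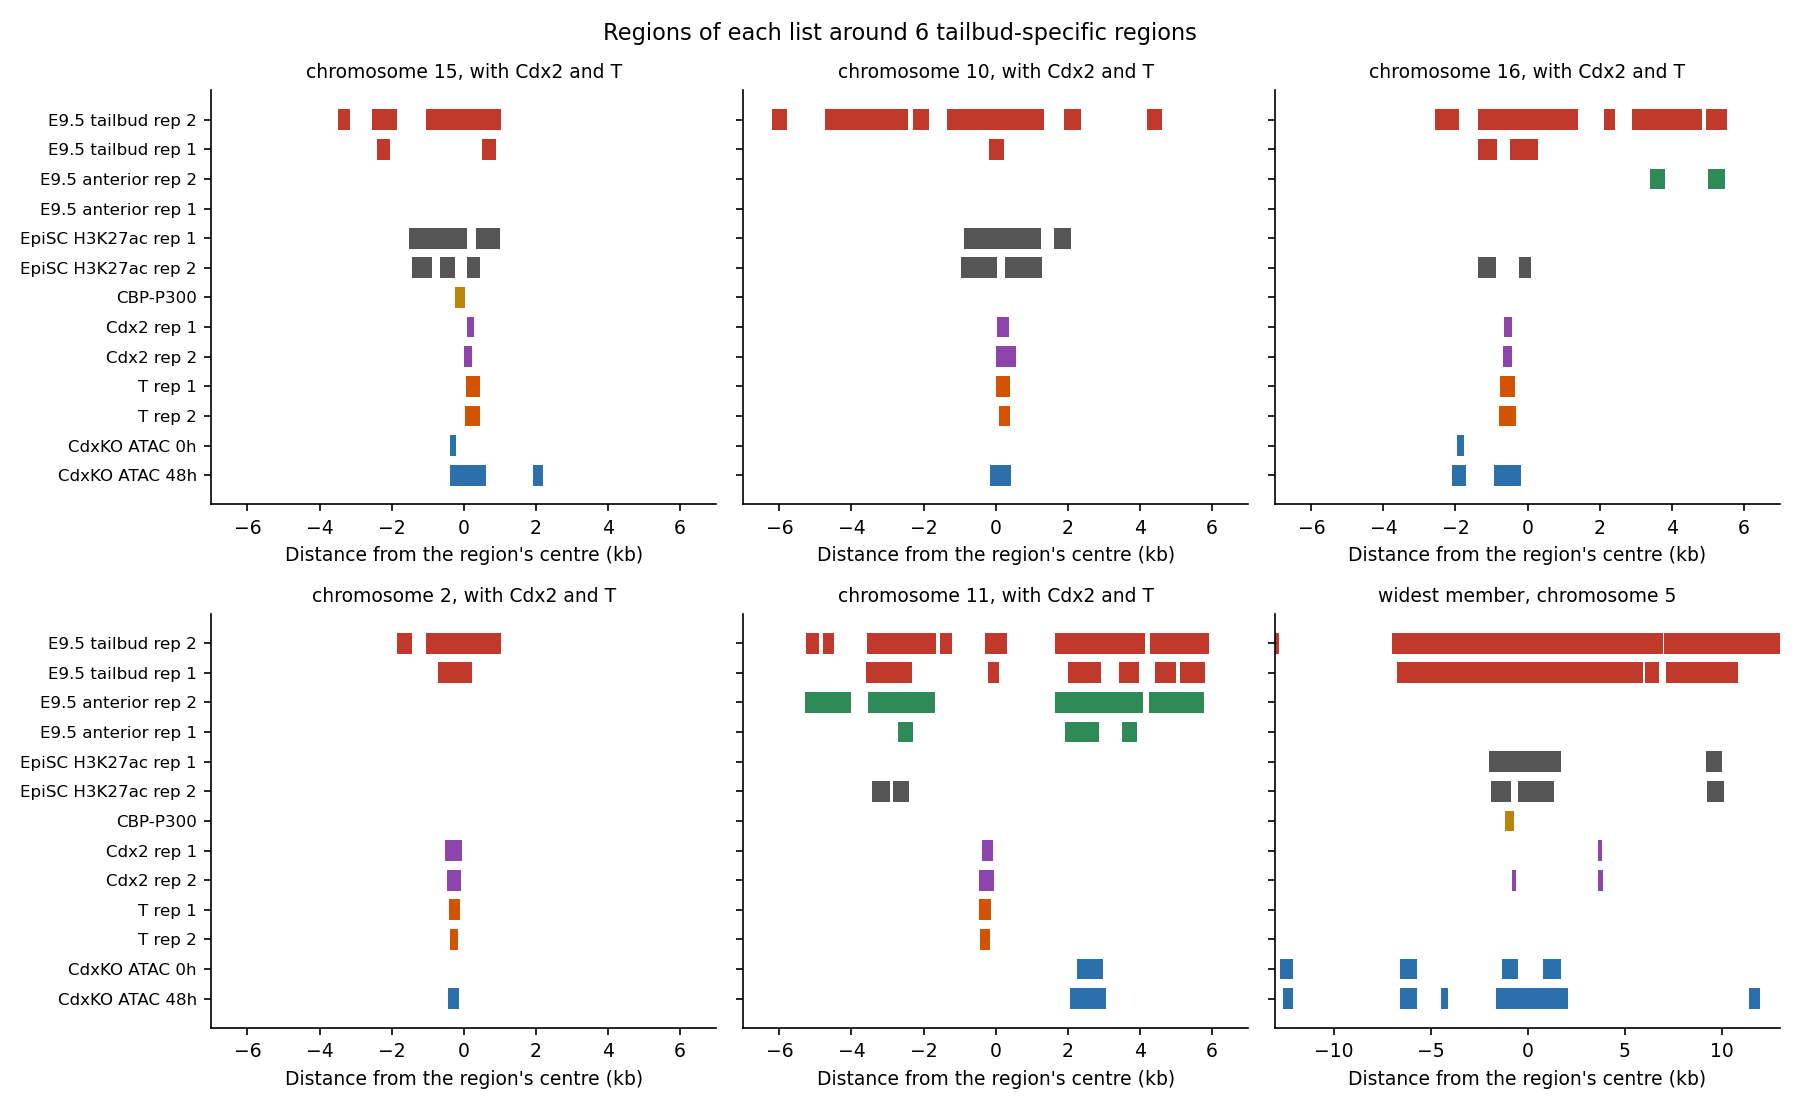
Calls of each list (rows) around 5 members with both a Cdx2 and a T site and around the widest member. The horizontal axis is the distance from the member's centre in kb. Each block is 1 call, and rows without a block have none within 6 kb of the member. Cdx2 and T calls coincide in the first 5 panels, with site centres 0 to 95 bp apart, and blocks at the window's edge are clipped.

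Most tailbud-specific regions had no open region in CdxKO EpiSCs. Regions without an ATAC-seq call are named closed here, although a signal under the threshold would look the same. At 0h 569 members (10.7%) overlapped an open region, beside 34.3% of all tailbud regions, 83.7% of shared and 24.5% of anterior-specific ones. At 48h 621 members (11.7%) did, beside 36.8%, 86.3% and 36.3%. Members were thus less often open than the anterior-specific set as well, by 13.8 points at 0h (members minus anterior -13.8, interval -16.3 to -11.4) and 24.6 points at 48h (-24.6, -27.4 to -21.9). Taking both times together, 4490 members (84.5%) were open at neither, 368 (6.93%) at both, 201 (3.78%) at 0h only and 253 (4.76%) at 48h only. Of all tailbud regions 60.1% were open at neither time and 31.2% at both, and of anterior-specific regions 59.5% and 20.3%. The 48h-only share of members was below the background of 5.58% for all tailbud regions and far below the 16.0% of anterior-specific regions. It was close to the 4.63% of shared regions (difference 0.133 points, interval -0.485 to 0.802). Openness at 0h only stood beside a background of 3.12%. The 0h share of members hardly varied with width, at 10.4%, 10.8%, 10.8% and 10.9% over the width classes. It rose with width from 15.4% to 70.7% over all tailbud regions and from 13.8% to 34.5% in the anterior-specific set. The lists in the rule moved these levels: with the replicate 2 lists alone 7.79% of tailbud-only regions were open at 0h and 8.41% at 48h, against 13.5% and 17.0% of anterior-only regions. Without the second anterior list the members' shares were 26.1% and 29.2%, still below all tailbud regions.

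The factor on a member went with a different pattern of openness. Of the 148 members with a Cdx2 site, 112 (75.7%, 68.2 to 81.9) were open at neither time, 20 at both, 11 at 48h only and 5 at 0h only. That was less than the 84.5% of all members. Of all tailbud regions with a Cdx2 site, 44.3% (301 of 680) were open at neither, and of shared regions with one 3.45% (7 of 203). Of the 33 members with a T site, 16 were open at neither time, 12 at 48h only, 5 at both and 0 at 0h only. The 48h-only share was therefore 36.4% (22.2 to 53.4) with a T site, 7.43% (4.2 to 12.8) with a Cdx2 site and 4.54% (4.0 to 5.14) with neither factor. Seen from the other side, 12 of 253 members open at 48h only held a T site (4.74%, 2.73 to 8.11), against 16 of 4490 closed at both times (0.356%, 0.219 to 0.578). Members open at 48h only were also wider, with a median of 1396 bp against 1053 bp, and the part of width in this difference was not tested. Over all tailbud regions the 48h-only share was 29.5% with a T site, 12.2% with a Cdx2 site and 5.45% with neither. The pattern was thus not limited to the members, and the members' value with a Cdx2 site was below that background. Members with a Cdx2 site and with a T site had median widths of 1826 and 1665 bp, against 1066 bp for all members. The part of width was not tested here either. With the replicate 2 lists alone the 48h-only shares were 34.6% (47 of 136) with a T site, 9.48% with a Cdx2 site and 3.11% with neither, and 76.8% of the regions with a Cdx2 site were closed at both times. Each time point rests on 1 library, so the openness has no replicate check.

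**Figure D4:**
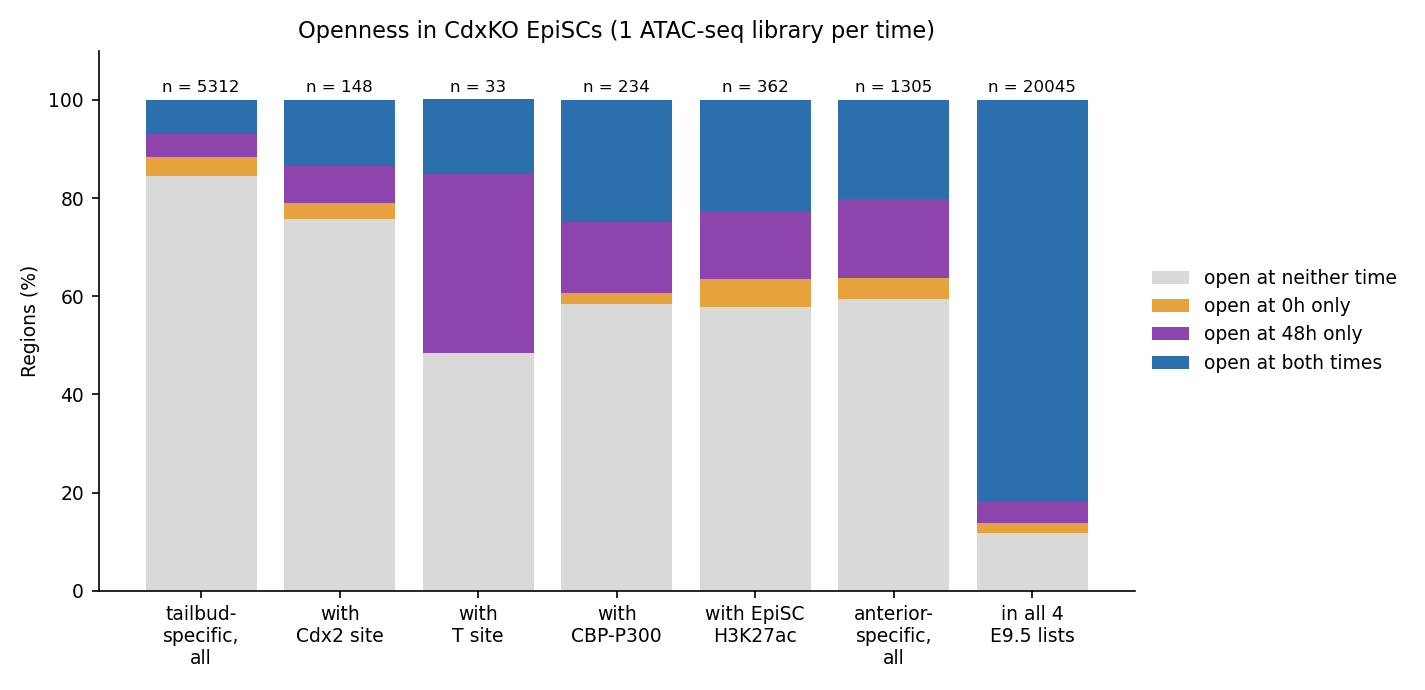
Share of regions (vertical axis, percent) open at neither time, at 0h only, at 48h only or at both times in CdxKO EpiSCs, for tailbud-specific regions, their subsets by EpiSC signal, and 2 comparison sets, with the number of regions above each bar. The 48h-only share is 36.4% in members with a T site and 4.76% in all members.

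Most members also had no CBP-P300 and no H3K27ac call in EpiSCs. A CBP-P300 region lay in 234 members, 4.41% (3.89 to 4.99), beside 12.3% of all tailbud, 37.9% of shared and 1.92% of anterior-specific regions, from 1 library without a replicate. H3K27ac was called in both EpiSC libraries at 362 members, 6.81% (6.17 to 7.52), beside 22.4%, 70.1% and 3.91%. Over all widths, members lay below the background for both signals and above the anterior-specific set, by 2.49 points (1.45 to 3.34) for CBP-P300 and 2.91 points (1.55 to 4.07) for H3K27ac. In the narrowest width class members were not below the background. CBP-P300 lay there in 2.18% of members, 1.97% of all tailbud and 2.61% of anterior-specific regions, and H3K27ac in 4.44%, 4.19% and 4.1%. Intervals of members and the anterior-specific set overlapped there for CBP-P300 (1.52 to 3.12 and 1.27 to 5.29) and H3K27ac (3.46 to 5.68 and 2.31 to 7.2). They overlapped for both signals in the middle classes as well. In the widest class the CBP-P300 shares were 8.51%, 40.1% and 1.39%, and those of H3K27ac 9.79%, 60.7% and 3.94%. The difference from the anterior-specific set in H3K27ac depended on the EpiSC library. In replicate 1 the call was found at 12.6% of members (background 24.8%) against 4.83% of anterior-specific regions. In replicate 2 it was found at 13.2% (background 30.3%) against 12.6%, a difference of 0.592 points with an interval of -1.51 to 2.52. Of 1004 members acetylated in either EpiSC library, 36.1% were so in both, below the 68.5% of all tailbud and 85.7% of shared regions and above the 29.0% of anterior-specific regions. From the replicate 2 E9.5 lists alone, CBP-P300 lay in 1.75% and H3K27ac of both EpiSC libraries in 2.83% of tailbud-only regions, against 0.877% and 1.58% of anterior-only regions. Without the second anterior list the members' shares were 6.8% and 11.8%.

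Members with H3K27ac in both EpiSC libraries held CBP-P300, Cdx2 and T more often than the other members, and were more often open at 48h. Of the 362 acetylated in both EpiSC libraries, 33.1% had CBP-P300, 11.3% a Cdx2 site, 3.87% a T site and 36.5% were open at 48h. The other 4950 had 2.3%, 2.16%, 0.384% and 9.88%. Their median widths were 1323 and 1056 bp, and how far width accounts for the gap was not tested. Of all tailbud regions acetylated in both EpiSC libraries, 88.0% were open at both times, against 31.2% of all tailbud regions. The link with openness was thus not limited to the members. For CBP-P300, Cdx2 and T, the same splits over all tailbud regions are not given here, so those links are not shown to be particular to members. In tailbud-only regions of the replicate 2 lists, CBP-P300 lay in 26.1% of the acetylated and 1.04% of the other regions, and a Cdx2 site in 5.93% and 0.77%. Of the 234 members with CBP-P300, 51.3% were acetylated in EpiSCs and 12.8% held a Cdx2 site. Even so, 137 of those 234 (58.5%) and 209 of the 362 acetylated members (57.7%) were closed at both times in CdxKO cells. Among all tailbud regions these shares were 7.34% and 7.06%, and among shared regions 1.42% and 1.65%. In anterior-specific regions they were 8.0% (2 of 25) and 23.5% (12 of 51). Tailbud-only regions of the replicate 2 lists had 59.0% and 57.7%. The ChIP-seq came from wild-type cells with Fgf8 at 24h and the ATAC-seq from CdxKO cells without it, so genotype, time and treatment cannot be told apart in such a contrast.

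By number of the 5 other EpiSC lists, 3818 members (71.9%) overlapped none, 675 overlapped 1, 497 overlapped 2, 201 overlapped 3, 87 overlapped 4 and 34 (0.64%) all 5. That tally was made for members only and has no background from other regions. Counting the Cdx2 and T calls of single libraries as well, 3674 members (69.2%) had no EpiSC signal at all, beside 53.6% of all tailbud, 8.53% of shared and 55.6% of anterior-specific regions. By the replicate 2 lists alone it was 81.2%. The 3 widest of those without a signal were chr11:85699029-85706067 (7039 bp), chr16:10450212-10456537 (6326 bp) and chr15:62007313-62012738 (5426 bp). Lack of an EpiSC call was therefore not limited to narrow regions.

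The view from the binding sites gave the 2 factors different shares. Of the 1075 Cdx2 sites, 149 (13.9%, 11.9 to 16.1) lay in tailbud-specific regions, 229 (21.3%) in shared regions, 306 (28.5%) in other tailbud replicate 2 regions, and 391 (36.4%) in none. Of the 767 T sites, 32 (4.17%, 2.97 to 5.83) lay in tailbud-specific regions, 47 (6.13%) in shared, 151 (19.7%) in other tailbud regions and 537 (70.0%) in none. With the replicate 2 lists alone, the tailbud-only regions held 27.2% of the Cdx2 sites and 16.8% of the T sites. The Cdx2 site itself, rather than the whole region, was closed at both times at 81.2% of the sites in members. It was closed at both times at 61.7% of all Cdx2 sites. The share was 27.9% in shared regions, 60.8% in other tailbud regions and 74.7% outside tailbud acetylation. T sites in members were open at 48h only in 13 of 32 cases (40.6%), against 25.2% of all T sites. The share was 23.4% in shared regions, 39.1% in other tailbud regions and 20.5% outside. The values for T sites in tailbud-specific and other tailbud regions thus lay close to each other. Of the sites in the tailbud-only regions of the replicate 2 lists, 80.1% of those of Cdx2 were closed at both times and 36.4% of those of T were open at 48h only.

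The widest members show how much the group varies. The widest, chr5:148110286-148124208, spans 13923 bp, was covered over 96.4% by the first tailbud list, and lay 71.3 kb from the nearest anterior region. It held 1 Cdx2 site and overlapped all 5 other EpiSC lists, with 3 open regions at each time. The region chr15:102761239-102771221 (9983 bp) was open at both times, with no ChIP-seq call from EpiSCs. At chr6:52259037-52268300 (9264 bp) there were 3 CBP-P300 regions, H3K27ac in both libraries, and 1 open region at 0h against 4 at 48h, without Cdx2 or T. The region chr4:87352669-87361438 (8770 bp) had H3K27ac in EpiSC replicate 1 alone. At chr4:87656548-87664514 (7967 bp) a Cdx2 site, 2 CBP-P300 regions and H3K27ac in both libraries came with no open region at either time. It was also the widest of the members that had a Cdx2 site and were closed. The next, chr2:75916689-75922112 (5424 bp) and chr2:74847125-74851719 (4595 bp), had the Cdx2 site as their single EpiSC signal.

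Members were joined into groups where they lay within 50 kb of each other, as a description without a background from other regions. This gave 3509 groups, of which 2505 held 1 member, and 395 held 3 or more and together 1589 members (29.9%). The Cdx2 share was 2.55% in members on their own, 2.87% in groups of 2 and 3.08% in groups of 3 or more. The largest group, chr15:93363749-93566795, had 15 members over 203 kb, of which 2 held a Cdx2 site, 1 a T site, and 0 were open at either time. The group at chr8:91904185-92095760 had 14 members, 1 with Cdx2, and again 0 open. At chr1:93912765-94029312 there were 11 members, with 0 Cdx2 sites, 1 CBP-P300 region and 1 open at 0h. The group chr7:103634845-103759969 also had 11 members, 1 with Cdx2 and 1 open at 0h. At chr6:87061546-87195529, 10 members included 1 with Cdx2, 2 with CBP-P300 and 3 acetylated in both EpiSC libraries. In these 5 groups 45 of 61 members had no EpiSC signal, beside 3674 of all 5312 members (69.2%).

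On the autosomes the members made up 6.09% to 8.14% of the tailbud replicate 2 regions. On the X chromosome they made up 22 of 1182, or 1.86% (1.23 to 2.8). Agreement between the 2 tailbud lists was no lower there, at 49.7% against 39.2% to 49.0% on autosomes. The difference lay in the step that removes anterior overlaps: of X regions in both tailbud lists 3.74% had no anterior overlap, against 12.4% to 20.2%. With the replicate 2 lists alone the X stood lower as well, at 29.3% against 38.1% to 49.5%. The mirrored set was also sparse on the X. There 3 of 1027 anterior replicate 2 regions were anterior-specific, beside 1305 of 61674 (2.12%) over all chromosomes. The low X share was thus not limited to the members. The Cdx2 share of members ran from 0.791% on chromosome 14 (2 of 253, 0.217 to 2.84) to 4.88% on chromosome 19 (8 of 164, 2.49 to 9.33). These intervals overlapped, and no background by chromosome is given for all tailbud regions. Of the 22 X members 0 held a site, which allows a share of up to 13.6%.

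**Figure D5:**
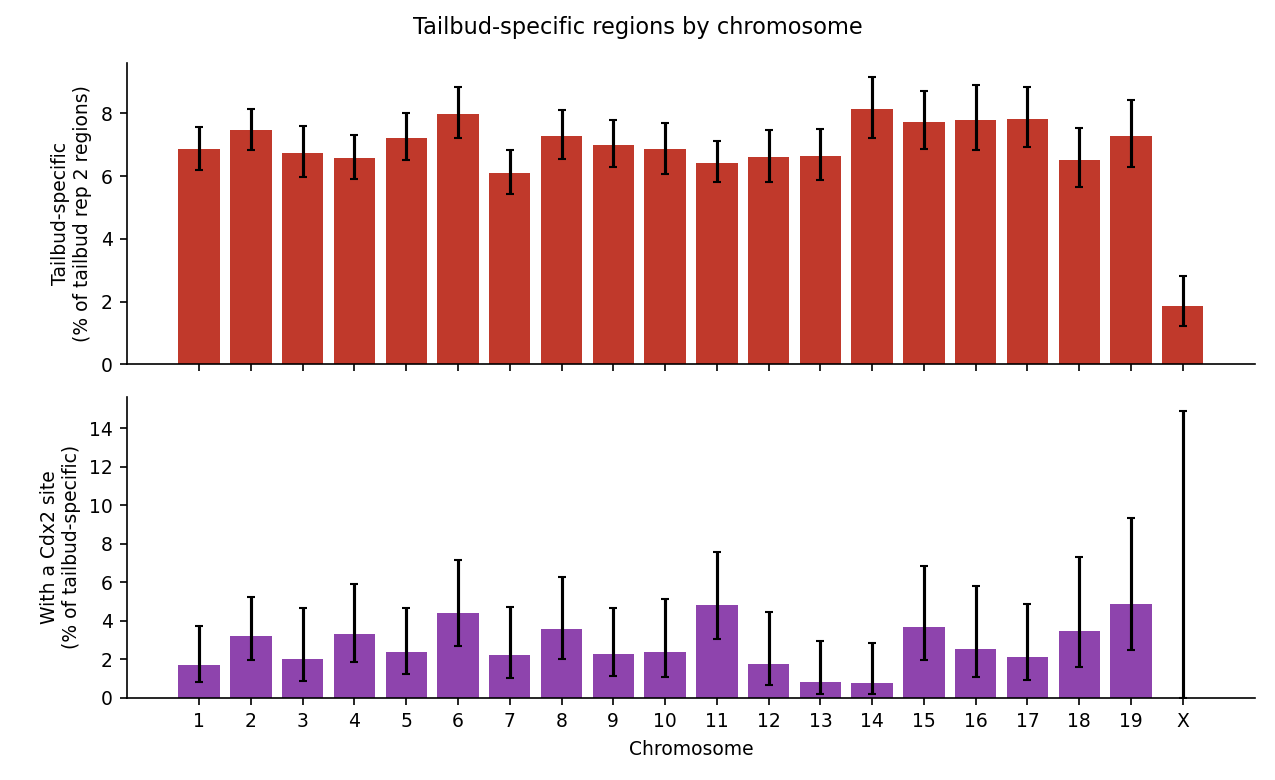
Tailbud-specific regions as a percent of tailbud replicate 2 regions (upper panel) and the percent of them with a Cdx2 site (lower panel), by chromosome; bars carry 95% Wilson intervals, and chromosome Y, with 5 tailbud regions and 0 members, is left out. The X chromosome stands at 1.86% against 6.09% to 8.14% on the autosomes.

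Transcript counts give the background for the binding data in EpiSCs. CEL-seq, which counts transcript 3′ ends, gave Cdx2 counts of 6 and 5 for the wild-type libraries before treatment and of 87 and 21 after 24h. The last 2 were far apart also after scaling, at 29.8 and 13.2 CPM (counts scaled to library size). The lines labelled Null had 0 and 6 before treatment and 21 and 19 (9.87 and 12.1 CPM) after it. Null cells therefore kept Cdx2 3′ counts. Where these tags lie relative to any altered part is not known here, so the counts do not check the label. Cdx1 counts at 24h were 16 and 7 in wild-type and 9 and 7 in Null libraries. Cdx4 had 0 counts in every library of both lines at 24h. Wild-type T counts were 96 and 95 (53.6 and 56.1 CPM) before treatment and 1504 and 648 (516 and 408 CPM) after it, with no overlap between the times. Null T counts were 24 and 12 (15.2 and 10.8 CPM) before treatment and 1016 and 923 (477 and 589 CPM) after it. The binding of both factors was thus mapped at a time when their transcripts were counted in both wild-type libraries.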

How the data were processed

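ChIP-seq and ATAC-seq calls were deposited by the authors as 3-column lists in mm9, 1 per sample, holding positions without a score. Per the submitters' processing notes, the tools included Bowtie 1.1.0, Bowtie2 2.1.0, SAMtools 0.1.19, cutadapt 1.8.1 and MACS2 2.1.0. Read depth behind the lists is unknown. Calls on unplaced contigs and the mitochondrial genome were left out. CEL-seq gene counts were used as deposited by the authors, without a test, and library totals ran from 1114055 to 2914870.

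Overlap meant at least 1 bp. Shares carry 95% Wilson intervals, and their differences Newcombe intervals (Python 3.11.15, pandas 2.3.3, NumPy 2.4.6, SciPy 1.17.1). The overlap code was tested on simulated intervals. Named regions were, by rule, the members with both factors, the 5 widest, the 5 largest groups within 50 kb, and the 3 widest that were closed with Cdx2 or without any EpiSC call. The members, the rule and the readouts were chosen with earlier results of these data known. An mm9 annotation and genome were not used here, so regions carry no gene names or sequences, and the planned test of nearest genes was not run. Whether replicates came from separate cultures or embryos is not stated in the labels.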

Additional observations from a re-analysis of the deposited data

How the results depend on the processing

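No paired analysis was possible because the results are overlaps of region lists and come from no test across samples. The number of members was 5312, and 33408 with the replicate 2 H3K27ac lists alone. Leaving out 1 list gave 5350 (without anterior replicate 1), 13082 (without anterior replicate 2) and 33318 (without tailbud replicate 1). With the replicate 2 lists alone the shares were 0.916% for Cdx2, 0.407% for T, 1.75% for CBP-P300, 7.79% and 8.41% for openness at 0h and 48h, and 2.83% for EpiSC H3K27ac. Members then held 27.2% of Cdx2 sites and 16.8% of T sites. Without tailbud replicate 1 the shares were 0.915%, 0.408%, 1.75%, 7.79%, 8.41% and 2.82%, and without anterior replicate 2 they were 2.06%, 0.512%, 6.8%, 26.1%, 29.2% and 11.8%. Without anterior replicate 1 they were 2.79%, 0.617%, 4.39%, 10.7%, 11.7% and 6.84%. Requiring an overlap of at least 50% of the shorter region gave 2.23% for Cdx2, 9.8% and 10.1% for openness at 0h and 48h, and 11.1% of Cdx2 sites in members. By replicate, Cdx2 replicate 2 gave 4.88% and either replicate 5.08%, T replicate 1 1.09% and either 1.22%, and EpiSC H3K27ac 12.6%, 13.2% and 18.9% for replicate 1, replicate 2 and either. Members held 10.6% of Cdx2 replicate 2 calls and 10.5% of those of either replicate. Under all 11 alternatives each, the Cdx2 and T shares stayed above those of all tailbud regions, by as little as 1.02 times for Cdx2 without tailbud replicate 1. In that setting the Cdx2 interval (0.819 to 1.02) contained the background of 0.894%, as it did with the replicate 2 lists alone. These settings thus show no excess of Cdx2 over all widths. The CBP-P300 and openness shares stayed below those of all tailbud regions under all 8 alternatives, and EpiSC H3K27ac under all 11. Leaving out members within 1 kb of an anterior region, or taking 1000 bp around each centre, kept every share inside its main interval. No member lay on an input list, so leaving out such members could change nothing and was no check. The causes of these shifts were not tested. Peak heights and read depth are not in the lists, which limits every comparison to called or not called.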
